A study of Mus musculus with 2208 samples.

Results

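Tumour necrosis factor, the interleukin 1 family and their partners were described as 9 genes: the cytokines Tnf, Il1a, Il1b, Il6, Il12b, Il18 and Il10, and the antagonists Il1rn and Il18bp. They were taken by gene symbol from the 23951 genes of the deposited table, where all 9 were listed, and 7 of them were among the 9435 genes that entered the test. Messenger RNA was measured in single cells of the mouse hippocampus that carried CD11b and CD45, surface proteins shared by microglia and other myeloid cells. In CK-p25 mice (CKp25), forebrain neurons can be made to produce p25, the shortened form of a Cdk5 activator, and they then degenerate; the transgene is known to be driven from the Camk2a promoter. CK mice were the littermate controls, and the labels do not spell out which alleles they carry. CKp25 and CK mice were taken at 0 weeks, when p25 had not been switched on (3 months of age), at 1 week (3 months and 1 week), at 2 weeks (3 months and 2 weeks) and at 6 weeks (4 months and 2 weeks). Each group held 3 mice, apart from CKp25 at 6 weeks with 4 mice. The labels give no other allele or treatment. Since p25 is made in neurons, the sorted cells themselves offer no check of the genotype labels.

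Tnf and the interleukin 1 cytokines are alarm signals that microglia release towards neurons, astrocytes and vessels. Tnf is made as a membrane protein and cut free by Adam17, whereas Il1b and Il18 are made as inactive precursors that the inflammasome enzyme Casp1 cleaves. Il1a can signal uncleaved. Il1rn occupies the interleukin 1 receptor without activating it, and Il18bp is a secreted protein that captures Il18, so both are brakes. Il6 signals through the shared receptor chain Il6st, Il12b is the subunit common to interleukins 12 and 23, and Il10 is an anti-inflammatory cytokine.

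The table held FPKM (fragments scaled by transcript length and by mapped fragments) for 2208 wells, of which 2028 with at least 1000 genes were kept, 41 to 96 per mouse. Mouse medians of genes per cell ran from 1537.5 to 2994. By group, they averaged 2133 ± 274 (SD) in CKp25 and 2109 ± 117 in CK at 0 weeks, then 2486 ± 335 in CKp25 and 2466 ± 295 in CK at 1 week. They averaged 2819 ± 274 in CKp25 and 2582 ± 306 in CK at 2 weeks, then 2187 ± 328 in CKp25 and 2113 ± 501 in CK at 6 weeks. FPKM keep no read counts, so the depth behind a value is unknown, and a gene at 0 was only listed at 0. The microglial markers Csf1r and Cx3cr1 were found in 100% and 99.7% of kept cells. Of the 25 wells numbered first for a mouse, 19 held over 8000 genes, and these wells stayed in unless stated. Whether a first well held 1 cell was not tested. They are 2 of the 10 CK cells and 3 of the 48 CKp25 cells with Il1b at 6 weeks. At 1 week they are 2 of the 5 CK cells with Il1b and 3 of the 12 CKp25 cells with Il18bp.

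A gene was called found in a cell at FPKM of 1 or more. Over all 2028 cells, Il1a was found most often (752 cells, 37.1%), followed by Tnf (402 cells, 19.8%) and Il18 (375 cells, 18.5%). Il6 (147 cells, 7.25%), Il1b (140 cells, 6.90%), Il18bp (129 cells, 6.36%) and Il1rn (127 cells, 6.26%) followed at nearly equal shares. The order differed by group: Il18 was found more often than Tnf in CKp25 mice at 0 weeks (18.2% and 10.5%) and in CK mice at 1 week (21.5% and 13.4%). Il12b was found in 26 cells (1.28%) and Il10 in 3 cells (0.148%). Among the cells that had the gene, the median level was highest for Il18 (141 FPKM), close for Il1b (108 FPKM), Il1a (105 FPKM) and Tnf (101 FPKM), and lowest for Il1rn (11.5 FPKM).

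Il1a and Il1b are adjacent genes on chromosome 2, which also holds Il1rn, and Tnf lies on chromosome 17 between Ltb and Lta. Promoter sequences were available for 8 of the 9 genes, Il10 being without an entry, as 10 windows from 250 bases before to 50 bases after the annotated start (RefSeq, GRCm38.p6). Those of Tnf, Il1a and Il1b are shown because these 3 windows, and no other of the 10, held the TATA box letters TATAAA on the strand of the gene. The capitals mark TATAAA and the AP-1 type letters TGANTCA. Each window is on the minus strand, at chr17:35201958-35202257 for Tnf, chr2:129309923-129310222 for Il1a and chr2:129371090-129371389 for Il1b.
Tnf: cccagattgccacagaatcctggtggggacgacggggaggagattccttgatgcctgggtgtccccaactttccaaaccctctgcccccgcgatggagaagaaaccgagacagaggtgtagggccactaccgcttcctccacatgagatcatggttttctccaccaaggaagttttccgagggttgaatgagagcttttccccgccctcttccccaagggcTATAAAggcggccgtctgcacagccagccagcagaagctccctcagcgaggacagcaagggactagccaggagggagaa
Il1a: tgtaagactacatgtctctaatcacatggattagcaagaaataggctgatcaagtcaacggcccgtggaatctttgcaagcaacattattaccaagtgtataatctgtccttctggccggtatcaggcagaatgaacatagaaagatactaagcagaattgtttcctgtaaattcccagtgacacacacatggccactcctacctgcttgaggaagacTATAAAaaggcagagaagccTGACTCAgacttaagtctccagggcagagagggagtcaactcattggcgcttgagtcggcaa
Il1b: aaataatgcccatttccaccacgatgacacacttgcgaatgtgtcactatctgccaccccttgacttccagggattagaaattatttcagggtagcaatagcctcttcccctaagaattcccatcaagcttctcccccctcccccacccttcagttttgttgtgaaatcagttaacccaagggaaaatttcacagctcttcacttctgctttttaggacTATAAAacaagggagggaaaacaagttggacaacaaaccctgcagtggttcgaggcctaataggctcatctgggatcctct
TATAAA begins 29 bases before the start in Tnf, 32 bases before it in Il1a and 31 bases before it in Il1b. Of all 32851 promoter windows, 8.32% held TATAAA on the strand of the gene and 13.6% on either strand. On the other strand it was also present in Il18 and in 1 of the 3 Il1rn windows. TGANTCA, which reads the same on both strands, was present in 7.81% of all windows and in those of Il1a, Il6 and 1 of Il1rn. The kappaB type letters GGGNNTTCC (5.82% of windows, either strand) and GGGANTTCC, which lie within them (1.68%), and the interferon response element type GAAANNGAA (8.56%) were in none of the 10 windows. The kappaB consensus of 10 letters, a search added after seeing the data, was in 4.51% of all windows on either strand and in 1 of the 10, as GGGATTTTCC in Il6, 44 bases before the start on the strand of the gene.

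At 1 week Tnf was the only tested member past the limma threshold between genotypes. It was found in 36.0%, 43.2% and 36.6% of cells in the 3 CKp25 mice, against 19.0%, 15.8% and 5.38% in the 3 CK mice. At 2 weeks the shares were 34.0%, 31.2% and 41.2% in CKp25 mice and 16.7%, 17.7% and 13% in CK mice. All CKp25 mice lay above all CK mice at both times. At 6 weeks the groups overlapped, with 19.5%, 22.8%, 15.4% and 14.8% in CKp25 mice and 15.9%, 14.9% and 22.0% in CK mice. At 0 weeks they overlapped as well, with 6.67%, 19.0% and 5.81% in CKp25 mice and 7.78%, 15.6% and 4.55% in CK mice.

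In limma, applied to the mean of log2(FPKM + 1) over the cells of a mouse, Tnf was higher in CKp25 by 1.77 ± 0.28 at 1 week (SE; means 2.63 in CKp25 and 0.87 in CK, adjusted p = 1.91e-05). It was higher by 1.35 ± 0.28 at 2 weeks (means 2.40 in CKp25 and 1.05 in CK, adjusted p = 0.000852). The difference was 0.12 ± 0.26 at 6 weeks (adjusted p = 0.886) and 0.11 ± 0.28 at 0 weeks (adjusted p = 1.00). Since most cells are at 0, a difference on this scale joins the share of cells with the gene and the level in them. The share of cells with Tnf, averaged over weeks 1, 2 and 6, was 30.7% in CKp25 and 15.6% in CK mice (2-sided exact permutation of mice within weeks, p = 0.00229, 14000 arrangements). Within a single week such a test cannot give a p below 0.1 with 3 mice against 3, nor below 0.0571 with 4 against 3, and 45 share tests were run in all without adjustment. When the level of a mouse was taken as log2 of its mean FPKM, in which a few cells with high values weigh most, Tnf missed the threshold at 1 week (2.59, adjusted p = 0.0901) and at 2 weeks (1.3, adjusted p = 0.371).

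**Figure D1:**
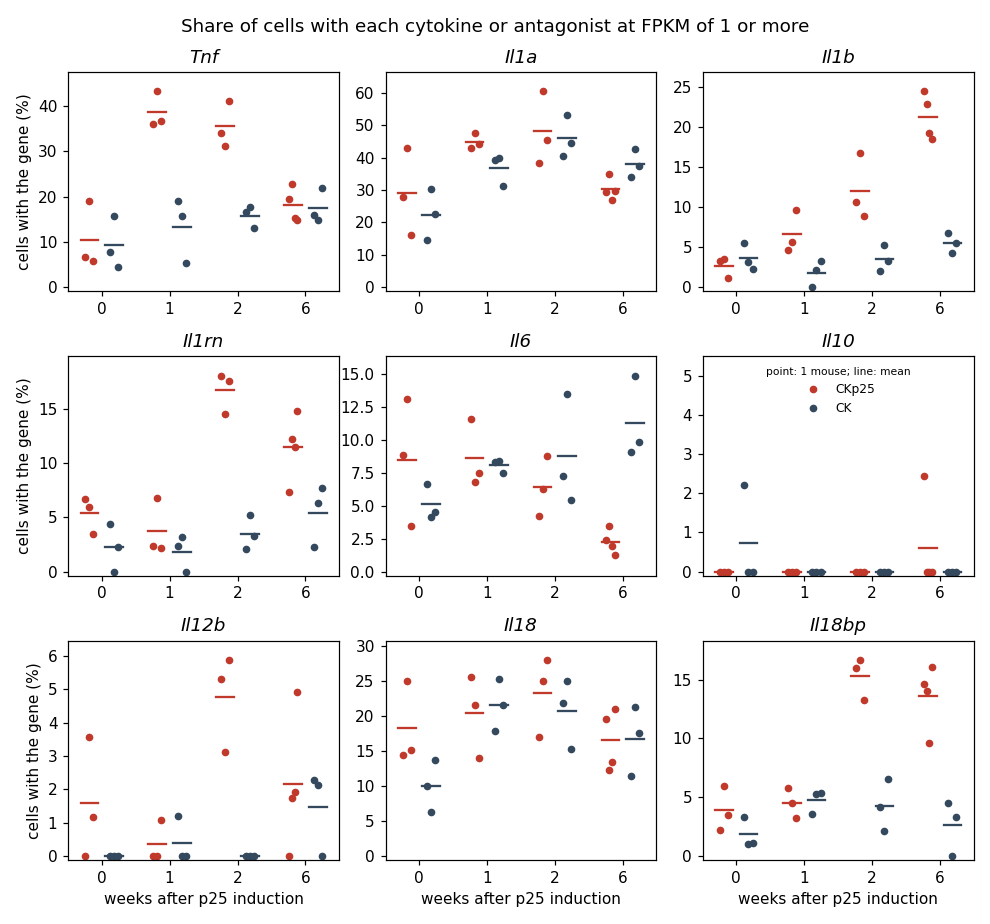
Percentage of cells with each of the 9 genes at FPKM of 1 or more (vertical axis) by weeks after induction (horizontal axis), with CKp25 mice in red left of CK mice in dark blue; points are mice and lines are group means. Tnf shares of CKp25 mice lie above all CK mice at 1 and 2 weeks, Il1b shares at 1, 2 and 6 weeks, and Il10 is at 0 in all but 2 mice.

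Il1b passed the threshold at 2 and 6 weeks. It was found in 4.65%, 5.68% and 9.68% of cells of CKp25 mice at 1 week, against 0%, 2.11% and 3.23% in CK mice. At 2 weeks it was found in 10.6%, 16.7% and 8.82% of cells in CKp25 mice, against 2.08%, 5.21% and 3.26% in CK mice. At 6 weeks it was found in 24.4%, 22.8%, 19.2% and 18.5% of cells in CKp25 mice, against 6.82%, 4.26% and 5.49% in CK mice. CKp25 mice lay above CK mice in each of these weeks, whereas at 0 weeks the groups overlapped (3.33%, 3.57% and 1.16% in CKp25; 5.56%, 3.12% and 2.27% in CK). Mean levels over all cells of a mouse at 6 weeks were 221, 122, 34.6 and 61.0 FPKM in CKp25 mice, against 19.3, 0.554 and 1.41 FPKM in CK mice.

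On the log2 scale, Il1b was higher in CKp25 by 1.38 ± 0.17 at 6 weeks (means 1.65 in CKp25 and 0.28 in CK, limma adjusted p = 9.85e-08) and by 0.61 ± 0.18 at 2 weeks (means 0.81 and 0.20 in the same order, adjusted p = 0.0255). At 1 week the difference of 0.36 ± 0.18 did not pass (adjusted p = 0.287). The call at 2 weeks was lost without CKp25 mouse 2 (0.46, adjusted p = 0.182), without CK mouse 1 (0.57, adjusted p = 0.106) and without CK mouse 3 (0.58, adjusted p = 0.0865) of that week, and in 6 other settings. The share of cells with Il1b over weeks 1, 2 and 6 was 13.3% in CKp25 and 3.61% in CK mice (exact permutation p = 0.000143, 2-sided, the smallest p that 14000 arrangements can give). Gene spans of Il1b and the long noncoding gene Il1bos overlap in RefSeq, and how the authors' counting treated strand is not given here, so their reads cannot be told apart. Il1bos was found in 4.33% of CKp25 cells and 1.65% of CK cells at 6 weeks, and together with Il1b in 0.433% and 0.549% of cells of those groups.

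Il1a was the most widely found member. At 0 weeks it was found in 27.8%, 42.9% and 16.3% of cells in CKp25 mice and 14.4%, 30.2% and 22.7% in CK mice, with an overlap. It was found in 43.0%, 47.7% and 44.1% of cells in CKp25 mice at 1 week, against 39.3%, 40% and 31.2% in CK mice, without overlap. At 2 weeks the shares overlapped (38.3%, 60.4% and 45.6% in CKp25; 40.6%, 53.1% and 44.6% in CK). At 6 weeks they were 29.3%, 35.1%, 26.9% and 29.6% in CKp25 mice and 34.1%, 42.6% and 37.4% in CK mice. No difference in Il1a passed the test: it was 0.62 ± 0.41 at 1 week (limma adjusted p = 0.453), 0.02 ± 0.41 at 2 weeks (adjusted p = 0.982) and -0.61 ± 0.38 at 6 weeks (adjusted p = 0.475). Its span overlaps the long noncoding gene Gm14023, which was found together with it in 24.3% of CKp25 cells and 13.2% of CK cells at 1 week, so part of its value may come from that gene.

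The antagonist Il1rn rose at 2 weeks. It was found in 18.1%, 14.6% and 17.6% of cells in CKp25 mice at that time, against 2.08%, 5.21% and 3.26% in CK mice, which did not overlap. The difference was 0.76 ± 0.10 (means 0.87 in CKp25 and 0.11 in CK, limma adjusted p = 1.6e-07). At 1 week it was 0.07 ± 0.10 (adjusted p = 0.763), with shares of 2.33%, 6.82% and 2.15% in CKp25 mice and 2.38%, 3.16% and 0% in CK mice. The difference at 0 weeks was 0.08 ± 0.10 and did not pass. The shares then overlapped, with 6.67%, 5.95% and 3.49% in CKp25 mice and 4.44%, 0% and 2.27% in CK mice. At 6 weeks Il1rn was found in 7.32%, 12.3%, 11.5% and 14.8% of cells in CKp25 mice, against 2.27%, 6.38% and 7.69% in CK mice, with an overlap. The difference of 0.33 ± 0.09 at 6 weeks passed (adjusted p = 0.0169). It did not pass without CKp25 mouse 4 (0.31, adjusted p = 0.0593), CK mouse 1 (0.28, adjusted p = 0.101) or CK mouse 2 (0.34, adjusted p = 0.0585).

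Il6 went the other way at 6 weeks. It was found in 2.44%, 3.51%, 1.92% and 1.23% of cells in CKp25 mice, against 9.09%, 14.9% and 9.89% in CK mice, with no overlap. The difference was -0.52 ± 0.13 (means 0.13 in CKp25 and 0.65 in CK, limma adjusted p = 0.00784), and -0.44 without CK mouse 2 (adjusted p = 0.0813). At 1 week it was -0.02 ± 0.14 (adjusted p = 0.954) and at 2 weeks -0.17 ± 0.14 (adjusted p = 0.544), with overlapping shares. At 0 weeks the shares also overlapped, with 8.89%, 13.1% and 3.49% in CKp25 mice and 6.67%, 4.17% and 4.55% in CK mice. The difference at 0 weeks was 0.30 ± 0.14, higher in CKp25, and did not pass (limma, unadjusted p = 0.0381). The span of Il6 overlaps the gene A230098N10Rik, which the table does not list. Il6 cells in CKp25 mice at 6 weeks numbered 5 of 231, against 20 of 182 in CK mice. First wells made up 2 of these 5 CKp25 cells and 2 of these 20 CK cells.

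Il12b was rare but not evenly spread. At 2 weeks it was found in 5.32%, 3.12% and 5.88% of cells in CKp25 mice and in 0 of 284 cells of CK mice, which allows a share of up to 1.06%. Such limits cover the counting of pooled cells only, not the spread between mice, and concern cells in which the gene was found, since RNA may be missed. Its mean levels at 2 weeks were 25.4, 14.4 and 19.1 FPKM in CKp25 mice, against at most 0.00264 FPKM in a CK mouse. The highest cell of each of these CKp25 mice held 1829, 1363 and 1043 FPKM, so each mean rests largely on 1 cell. At 0 weeks the shares were 0%, 3.57% and 1.16% in CKp25 mice, with 0 of 274 CK cells. At 6 weeks the shares were 0%, 1.75%, 1.92% and 4.94% in CKp25 mice and 2.27%, 2.13% and 0% in CK mice, with an overlap. These are 6 CKp25 cells, 2 of them in first wells, and 2 CK cells, 1 of them in a first well, and both CK cells had 3 or more markers of another type. Il12b missed the filter of the test (10% of cells in 3 mice). With the filter at 1% of cells it was higher in CKp25 by 0.31 ± 0.06 at 2 weeks (limma adjusted p = 0.00464), in a fit of 17979 genes that called 2.71% of them higher at that week. In that fit the effect at 2 weeks minus that at 0 weeks was 0.25 ± 0.09 and did not pass (limma adjusted p = 0.297). Of the 12 CKp25 cells with Il12b at 2 weeks, 41.7% had the monocyte marker Plac8, against 12.6% of those without Il12b, and 75% had the microglial receptor P2ry12, against 95.1%. In settings added after seeing the data, the difference at 2 weeks was 0.26 ± 0.07 without the cells that had 3 or more markers of another type (limma adjusted p = 0.0308) and 0.30 ± 0.07 without the wells numbered first (adjusted p = 0.0113). The exact permutation of its shares over weeks 1, 2 and 6 gave p = 0.0446 (2.43% in CKp25 and 0.621% in CK mice, 2-sided, unadjusted).

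Il10 was found in 3 of 2028 cells. These were 2.44% of the cells of 1 CKp25 mouse at 6 weeks and 2.22% of the cells of 1 CK mouse at 0 weeks, and no other mouse had a cell with it. In the 6 groups at 0 the number of cells allows shares of up to 1.06% to 1.65%. A genotype difference in Il10 was not detectable with these cells.

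Il18 was found in 20.4 ± 5.9% of cells in CKp25 and 21.5 ± 3.7% in CK mice at 1 week (SD over mice), in 23.3 ± 5.7% in CKp25 and 20.7 ± 5.0% in CK at 2 weeks, then in 16.6 ± 4.3% in CKp25 and 16.7 ± 5.0% in CK at 6 weeks. No difference passed, with -0.26 ± 0.28 at 1 week, 0.03 ± 0.28 at 2 weeks and -0.11 ± 0.26 at 6 weeks (limma adjusted p = 0.690, 0.971 and 0.899). The shares lay apart at 0 weeks, with 14.4%, 25% and 15.1% in CKp25 mice and 10%, 6.25% and 13.6% in CK mice, a difference of 0.68 ± 0.28 that did not pass (adjusted p = 1.00, unadjusted p = 0.0183). Il18 overlaps the genes Bco2 and Tex12, and Bco2 was found together with it in 3.28% to 10.1% of cells of a group.

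Il18bp was found in 16.0%, 16.7% and 13.2% of cells in CKp25 mice at 2 weeks, against 4.17%, 2.08% and 6.52% in CK mice. At 6 weeks it was found in 14.6%, 14.0%, 9.62% and 16.0% of cells in CKp25 mice, against 4.55%, 0% and 3.30% in CK mice. The groups did not overlap in either week. The differences were 0.68 ± 0.12 at 2 weeks (means 0.90 in CKp25 and 0.22 in CK, limma adjusted p = 0.000107) and 0.72 ± 0.11 at 6 weeks (means 0.84 in CKp25 and 0.12 in CK, adjusted p = 1.37e-05). At 1 week the difference was -0.05 ± 0.12 (adjusted p = 0.875). The share averaged over weeks 1, 2 and 6 was 11.1% in CKp25 and 3.87% in CK mice (exact permutation p = 0.00171, 2-sided, unadjusted).

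**Figure D2:**
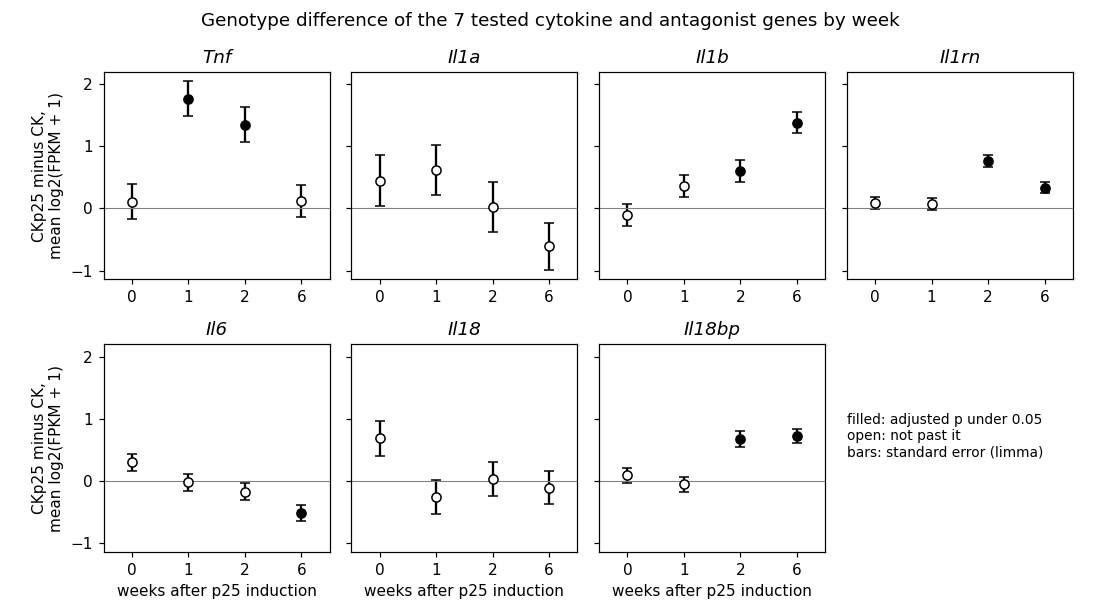
Difference of CKp25 minus CK in the mean of log2(FPKM + 1) (vertical axis) for the 7 tested genes by weeks after induction (horizontal axis); bars are limma standard errors, filled points passed adjusted p of 0.05. Tnf is filled at 1 and 2 weeks, Il1b, Il1rn and Il18bp at 2 and 6 weeks and Il6, below 0, at 6 weeks.

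By count, no tested member was called at 0 weeks, where 0% of the 9435 genes were called in either direction by limma, and 2 members and 101 genes had an unadjusted p under 0.05. At 1 week 1 of 7 was higher (3.90% of all genes) and 0 lower (0.392%). At 2 weeks 4 of 7 were higher (6.14%) and 0 lower (2.24%). At 6 weeks 3 of 7 were higher (4.21%) and 1 lower (1.54%). Averaged over weeks 1, 2 and 6, Tnf (1.08), Il1b (0.78), Il18bp (0.45) and Il1rn (0.39) were higher (4 of 7, against 12.7% of all genes) and Il6 was lower (-0.24, adjusted p = 0.0260; 6.87%). Il1b, Il1rn and Il18bp each entered the test through 6 CKp25 mice and 0 CK mice with the gene in at least 10% of cells, so the filter favoured members that differ and the counts are no support for a difference of the group of genes. With the filter at 1% of cells, Il1rn and Il18bp at 2 and 6 weeks and Il1b at 6 weeks stayed past the threshold (limma adjusted p of 3.99e-06 and 0.0314 for Il1rn, 0.00072 and 0.000191 for Il18bp, and 1.89e-05 for Il1b), and Il1b at 2 weeks did not (0.0849).

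The change of the genotype effect between weeks was tested as an interaction. Against 0 weeks, the effect at 1 week was larger for Tnf (1.66 ± 0.40, limma adjusted p = 0.0180; 1 of 7 members and 1.13% of all genes called). The effect at 2 weeks was larger than at 0 weeks for Il1rn (0.68 ± 0.14, adjusted p = 0.00156; 1 of 7 and 2.63%). At 6 weeks against 0 weeks it was larger for Il1b (1.48 ± 0.25, adjusted p = 0.00014) and Il18bp (0.63 ± 0.17, adjusted p = 0.0305) and lower for Il6 (-0.82 ± 0.19, adjusted p = 0.00976), which made 3 of 7 against 1.80%. The effect of Il1rn at 6 against 0 weeks was not called (0.25 ± 0.13, limma adjusted p = 0.581). At 2 against 0 weeks those of Tnf (1.24 ± 0.40, adjusted p = 0.0885), Il18bp (0.58 ± 0.17, 0.0543) and Il1b (0.71 ± 0.25, 0.153) were not called. Between 1 and 2 weeks the effect grew for Il1rn (0.69 ± 0.14, adjusted p = 0.00194) and Il18bp (0.73 ± 0.17, adjusted p = 0.0107), 2 of 7 against 1.71%. Since Il1b, Il1rn and Il18bp entered the test through CKp25 mice alone, these counts too are no support for a difference of the group of genes.

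From 2 to 6 weeks, no member's effect changed past the threshold (0 of 7 against 0.0424% of all genes; 3 members and 528 genes at an unadjusted p under 0.05). The values were -1.23 ± 0.38 for Tnf and -0.43 ± 0.13 for Il1rn (limma adjusted p = 0.460 for both), and 0.77 ± 0.25 for Il1b (adjusted p = 0.489). The decline of the Tnf effect and the growth of the Il1b effect between these times were thus not called.

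Within CKp25 mice, levels were also set against CKp25 mice at 0 weeks. Tnf was higher by 1.99 ± 0.28 at 1 week (limma adjusted p = 1.74e-06), the 1 member of 7 called, against 9.68% of all genes. At 2 weeks Tnf (1.76), Il18bp (0.72), Il1rn (0.71) and Il1b (0.66) were higher, 4 of 7 against 12.5%. At 6 weeks Il1b (1.5), Il18bp (0.66) and Il1rn (0.34) were higher and Il6 was lower (-0.43 ± 0.13, adjusted p = 0.0314), 4 of 7 against 7.02%. With the filter at 1% of cells, the lower Il6 did not pass (limma adjusted p = 0.0792). Within CK mice no member was called at 1, 2 or 6 weeks against 0 weeks, where 0%, 0% and 0% of genes were called, and 2 members had an unadjusted p under 0.05 at each time. At 6 weeks these 2 were Il6 (0.39 ± 0.14, limma unadjusted p = 0.00826) and Il1a (0.87 ± 0.41, unadjusted p = 0.0385), both higher than at 0 weeks. The comparisons within a genotype share mice with those between genotypes. Their counts carry the same limit, since Il1b, Il1rn and Il18bp entered the test through CKp25 mice alone.

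In the cells that had a gene, the level also differed for some. At 6 weeks, Il1b had a median of 281 FPKM in the 48 CKp25 cells with it, against 17.4 FPKM in 10 CK cells. For Il1rn at 2 weeks the medians were 35 FPKM in 43 CKp25 cells and 7.65 FPKM in 10 CK cells. Il18bp had medians of 83.9 FPKM in 32 CKp25 cells and 19.4 FPKM in 5 CK cells at 6 weeks. For Tnf at 1 week they were closer, at 134 FPKM in 103 CKp25 cells and 99.1 FPKM in 36 CK cells. At 0 weeks the Il1b medians lay the other way, at 17.4 FPKM in 7 CKp25 cells and 183 FPKM in 10 CK cells. These medians over cells of several mice are a description without a test, and the CK values rest on few cells.

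**Figure D3:**
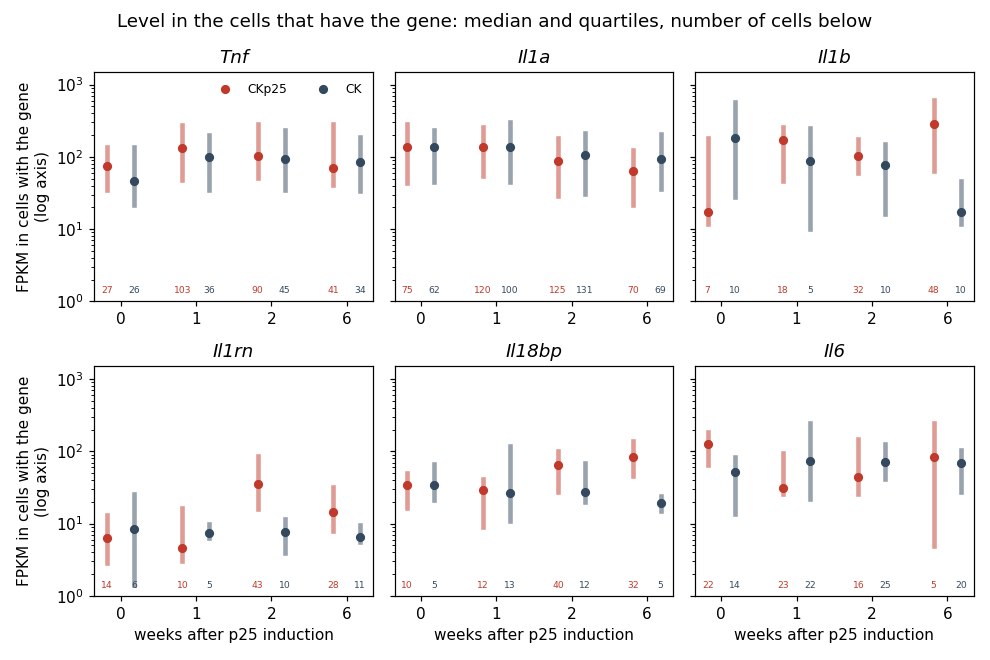
FPKM among cells that have the gene (vertical log axis) by weeks after induction (horizontal axis) for 6 genes, CKp25 in red left of CK in dark blue; points are medians, bars run between quartiles, and the numbers below count the cells. Tnf and Il1a medians of both genotypes stay between 46.6 and 139 FPKM, while Il1b at 6 weeks is 281 FPKM in CKp25 and 17.4 FPKM in CK, and at 0 weeks 17.4 FPKM in CKp25 and 183 FPKM in CK.

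The genes also met in the same cells. Cells with 3 or more of the 9 genes made up 14.0 ± 4.7% of cells in CKp25 and 3.71 ± 1.38% in CK mice at 1 week, 24.4 ± 5.5% in CKp25 and 6.64 ± 3.59% in CK at 2 weeks, then 14.1 ± 4.8% in CKp25 and 7.67 ± 0.85% in CK at 6 weeks (SD over mice). Cells with none of them made up 26.7 ± 2.7% in CKp25 and 34.1 ± 2.9% in CK mice at 2 weeks, and 37.4 ± 3.2% in CKp25 and 39.0 ± 11.6% in CK mice at 6 weeks. These shares depend on how often single genes were found and on how often they met in 1 cell, and were not tested.

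**Figure D4:**
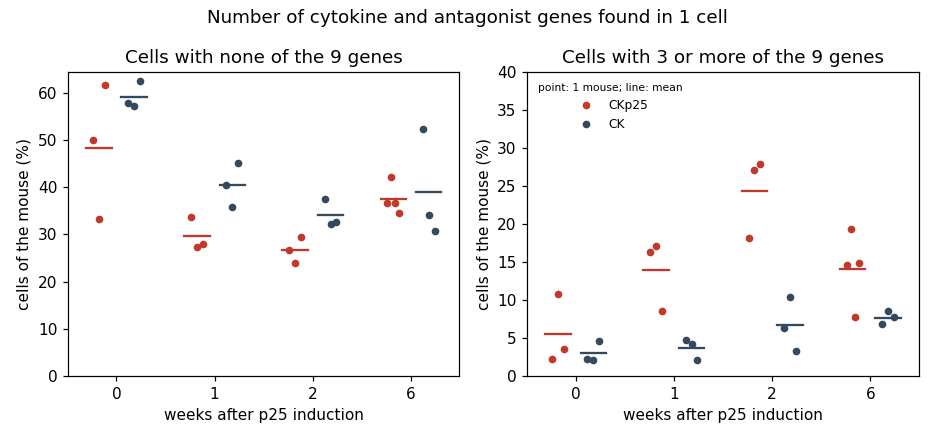
Percentage of cells of a mouse with none (left) and with 3 or more (right) of the 9 genes (vertical axes) by weeks after induction (horizontal axes), CKp25 in red left of CK in dark blue; points are mice and lines group means. Cells with 3 or more average 24.4% in CKp25 and 6.64% in CK mice at 2 weeks.

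Of the 103 CKp25 cells with Tnf at 1 week, 63.1% also had Il1a, against 33.5% of the cells without Tnf. The cells with Tnf held a median of 3149 genes and those without it 2236.5, and a cell with more genes found has more chance to show any pair. At 6 weeks 39.0% of the 41 CKp25 cells with Tnf had Il1b, against 16.8% of those without Tnf, with medians of 2529 and 2190 genes. For Il1b and its antagonist, 21.9% of the 32 CKp25 cells with Il1b had Il1rn at 2 weeks, against 15.9% of those without Il1b. At 6 weeks these shares were 20.8% of 48 cells and 9.84%, so most cells with Il1b had no Il1rn found. Both genes together were found in 3.02 ± 2.54% of CKp25 cells at 2 weeks and 4.16 ± 1.48% at 6 weeks (SD over mice). In wells with at least 2000 genes, the difference in the share of cells with Tnf was 33.8 percentage points at 1 week and 24.6 at 2 weeks, against 25.2 and 19.7 in all kept wells.

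CD11b and CD45 are also carried by monocytes, macrophages and neutrophils, whose markers were followed beside these results. The 7 monocyte markers, summed on the log2 scale, reached 2.44 to 2.53 in CKp25 and 0.20 to 0.89 in CK mice at 2 weeks, and 0.84 to 2.85 in CKp25 and 0.39 to 0.93 in CK mice at 6 weeks. At 1 week they were 0.55 to 0.65 in CKp25 and 0.48 to 0.83 in CK mice. Of these, CKp25 cells at 2 weeks had Ms4a4c most often (19.4%, against 1.41% in CK), then Plac8 (14.0%, against 1.06% in CK), while Chil3 and F13a1 were in no CKp25 cell. The monocyte receptor Ccr2 stood at 8.53% in CKp25 against 6.34% in CK at 2 weeks, and at 6.93% in CKp25 against 8.79% in CK at 6 weeks. Of the 90 CKp25 cells with Tnf at 2 weeks, 26.7% had Plac8, against 7.14% of those without Tnf, and their median gene numbers were 3283.5 and 2514.5. Ccr2 went the other way, at 6.67% of the cells with Tnf against 9.52% of those without, and Ly6c2 was at 2.22% against 1.79%. The microglial receptor P2ry12 was found in 95.6% of the cells with Tnf, against 93.5% of those without. None of the 5 neutrophil markers in the table was found in a CKp25 cell at 2 or 6 weeks. The 6 markers of border-associated macrophages summed to 2.50 to 3.38 in CKp25 and 4.63 to 5.74 in CK mice at 2 weeks, and 2.64 to 3.76 in CKp25 and 3.87 to 5.59 in CK mice at 6 weeks. Among them Stab1 was found in most cells, with 69.0% in CKp25 against 87.0% in CK at 2 weeks and 41.6% in CKp25 against 84.6% in CK at 6 weeks. At 6 weeks Mrc1 (6.49% in CKp25 against 4.40% in CK), Pf4 (4.76% against 2.75%) and Cbr2 (5.63% against 3.30%) went the opposite way. Cd163 (5.19% in CKp25 against 6.59% in CK) and Lyve1 (0.866% against 1.65%) were lower in CKp25, as Stab1 was. Cells with at least 3 of these markers numbered 10 of 231 in CKp25 and 5 of 182 in CK at 6 weeks. The 10 microglial markers summed to 75.9 to 78.1 in CKp25 and 81.1 to 91.5 in CK mice at 2 weeks, and 65.6 to 76.2 in CKp25 and 76.6 to 83.6 in CK mice at 6 weeks.

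Among CKp25 cells at 6 weeks, 16.7% of the 48 cells with Il1b had Ccr2, against 4.37% of cells without Il1b, 10.4% had Plac8, against 2.73%, and 12.5% had Mrc1, against 4.92%. Cd163 went the other way, at 4.17% of the cells with Il1b against 5.46% of those without. The cells with Il1b held a median of 2502.5 genes and those without it 2186, and a cell with more genes found has more chance to show any marker. At least 3 markers of another cell type were found in 6 of the 48 cells with Il1b and in 7 of the 183 without. P2ry12, a microglial receptor, was found in 95.8% of these cells with Il1b, against 92.3% of those without. In CKp25 mice it was found less often in cells with Il1b at 2 weeks (87.5%, against 95.1% of those without) and in cells with Tnf at 6 weeks (85.4%, against 94.7%). Tmem119, another microglial marker, went the other way. It was in 100% of the cells with Il1b at 2 weeks, against 99.1%, and in 100% of those with Tnf at 6 weeks, against 94.7%. In a setting chosen after seeing the data, the 73 cells with at least 3 markers of another cell type were left out. Without them the difference at 6 weeks was 1.39 for Il1b (limma adjusted p = 4.76e-06), 0.75 for Il18bp (2.99e-05), 0.34 for Il1rn (0.0162) and -0.51 for Il6 (0.00991), and Tnf was at 1.77 at 1 week (3.3e-05). Il1b at 2 weeks kept its size of 0.61 and missed the threshold (adjusted p = 0.0711), as did the growth of the Il18bp effect between 1 and 2 weeks (0.61, adjusted p = 0.107). A role of cells with fewer markers was not tested. Of 18 genes that enzymatic dissociation of tissue can induce, 0 were called at 0, 1 and 6 weeks, and 2 were higher at 2 weeks, against 6.14% of all tested genes: the transcription factor Atf3 (1.46 ± 0.43, limma adjusted p = 0.0252) and Nfkbiz (1.13 ± 0.34, adjusted p = 0.0304). Their part in the 2-week results was not tested. More cells with a gene and more RNA per cell were separated here by cell, but a cell at 0 may still hold RNA that was not captured.

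Of 13 cytokine receptor genes 8 were tested, of 19 signalling genes 16, and of the 8 genes in the table that steer the decay of cytokine mRNA all 8; none was called in any week. The receptor median difference was -0.46 at 2 weeks and -0.26 at 6 weeks, beside -0.00 and -0.04 over all tested genes, and the smallest limma adjusted p of a receptor was 0.0640, at 2 weeks. Of 10 tested genes for processing and release, 2 were higher at 2 weeks (6.14% of all tested genes) and 1 was lower at 6 weeks (1.54%). Casp4, an inflammatory caspase that senses bacterial lipopolysaccharide inside the cell, was higher by 1.02 ± 0.25 at 2 weeks (limma adjusted p = 0.00449). Its share of cells was 32.9 ± 2.3% in CKp25 and 13 ± 3.7% of CK cells (SD over mice). Rhbdf2, a partner of Adam17 in the release of Tnf, was higher by 0.58 ± 0.19 (adjusted p = 0.0478). Casp8, a caspase of death receptor signalling, was lower at 6 weeks (-1.39 ± 0.38, adjusted p = 0.0172).

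Of 35 further cytokine ligands, 12 were tested, and their median difference was 0.10 at 2 weeks and 0.11 at 6 weeks. At 2 weeks 4 of these were higher (6.14% of all tested genes) and 0 lower (2.24%). Spp1, the matrix-type cytokine osteopontin, was higher by 2.11 ± 0.31 (limma adjusted p = 8.22e-06), and Ebi3, a subunit of interleukins 27 and 35, by 0.97 ± 0.24 (adjusted p = 0.00565). Osm, a cytokine of the Il6 family, was higher by 0.85 ± 0.22 (adjusted p = 0.00905), and Tnfsf8, the CD30 ligand of the Tnf family, by 0.58 ± 0.16 (adjusted p = 0.0134). At 6 weeks 2 were higher (4.21%): Tnfsf8 by 1.23 ± 0.15 (adjusted p = 1.3e-07), and Spp1 by 1.67 ± 0.29 (adjusted p = 0.000144). Tnfsf8 was found in 23.5 ± 7.2% of CKp25 cells and 2.2 ± 0.07% of CK cells at 6 weeks. No CK mouse of any week had it in more than 2.27% of cells, and no CKp25 mouse at 0 or 1 week in more than 4.44%. Tnfsf8 thus entered the test only through CKp25 mice at 2 and 6 weeks, where it was high. The filter favoured it, and the counts of ligands called are no support for a difference of these ligands as a group.

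The mouse profiles most like each member were taken by Pearson's r over the 25 mice, as a description, since the mice share groups and depth. Nearest to Tnf were Sae1 (r = 0.886), Lmna (0.883) and Psat1 (0.876). Those nearest to Il1b were Nceh1 (0.911), Gpr65 (0.909) and the lysozyme gene Lyz2 (0.897). For Il1rn they were Ifit2 (0.932), Stat2 (0.921) and Sdc3 (0.921), and for Il18bp Slfn2 (0.967), Oasl2 (0.965) and Ifi204 (0.959). Ifit2, Stat2, Oasl2 and Ifi204 are known as interferon response genes. Nearest to Il1a was Pdia4 (0.811), to Il6 Tgm2 (0.798) and to Il18 Mcmbp (0.741). Among the members themselves, Il1rn and Il18bp had the highest r (0.83), followed by Il1b and Il18bp (0.779) and Tnf and Il1a (0.658), while r was -0.55 between Il1b and Il6.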

How the data were processed

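The authors deposited 1 table of FPKM from Smart-seq2 libraries of single sorted cells. Cufflinks 2.2 and the build mm9 are named per the submitters' processing notes; the aligner's version, the annotation, the filters and the strand setting are not given in the sources used here. The submitters state 2183 libraries and a median of 251353 mapped reads per cell, whereas the labels list 2208 samples. Whether the 25 wells numbered first make up this gap was not tested. Wells were kept from 1000 detected genes upwards (detected: FPKM no lower than 1), and doublets were not called. No column was without a sample (0).

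For each mouse, log2(FPKM + 1) was averaged across kept cells. A gene entered the test if 10% of cells in each of 3 mice or more detected it; it was tested with limma 3.58.1 (R 4.3.3; trend and robust options) on all 25 mice in 8 groups, with 17 residual degrees of freedom and no covariates. P-values (2-sided) were adjusted after Benjamini and Hochberg across all 9435 genes, with 0.05 as threshold. The fit was tested on simulated data. Shares of cells were compared by exact permutation of mice (Python 3.11.15, numpy 2.4.6, pandas 2.3.3). Labels separate mice, and the spread is that between mice.

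Members, gene lists and markers were chosen with earlier results of these data known. All 9 members are named; from each list up to 4 genes past the threshold per week, by p, and for each tested member up to 3 genes of most alike profile. Alternatives changed the pseudocount, the filters, the scaling, the wells kept, the fit and the mice; leaving out cells with markers of another type, alone or with the filter at 1% of cells for Il12b, and leaving out first wells with that filter, were chosen after seeing the data. Cells at 0 are listed at 0. Replicate numbers were not taken as pairs, because same-numbered CKp25 and CK mice correlated at -0.119 to 0.348 in their deviations, not above 0.1 in every pair. The correlation was below 0 only for replicate 3 of week 6. Whether same-numbered mice shared a batch was not tested, and a fit with a replicate block is given below.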

Additional observations from a re-analysis of the deposited data

Results flagged for a closer look

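Interactions past the threshold were the larger genotype effect at 1 week than at 0 weeks for Tnf (1.66), at 2 weeks than at 0 weeks for Il1rn (0.68), and at 6 weeks than at 0 weeks for Il1b (1.48) and Il18bp (0.63), with the lower effect of Il6 (-0.82) at 6 weeks. Between 1 and 2 weeks the effect was larger at 2 weeks for Il18bp (0.73) and Il1rn (0.69).

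Several rest on single mice. The limma adjusted p for Tnf at 1 against 0 weeks was 0.0712 without CKp25 mouse 1, 0.0997 without CKp25 mouse 3 and 0.0989 without CK mouse 2 of week 0, and 0.0558 without CKp25 mouse 2 and 0.132 without CK mouse 3 of week 1. For Il6 it was 0.0752 without CKp25 mouse 2 of week 0. For Il18bp at 6 against 0 weeks it missed the threshold in 17 of 37 alternatives, 9 of which left out 1 mouse, with 0.102, 0.0567 and 0.0647 without CKp25 mice 1, 2 and 3 and 0.123 and 0.0728 without CK mice 1 and 3 of week 0. It was 0.0545 and 0.0765 without CKp25 mice 1 and 4, and 0.118 and 0.0556 without CK mice 2 and 3 of week 6. Leaving out the first wells was among the other settings in which this Il18bp call was lost. For Il1b at 6 against 0 weeks and for Il1rn, leaving out any 1 mouse kept the call, although other settings did not: Il1b missed in wells of at least 2000 genes (0.0632) and Il1rn with log2 of the mean FPKM (0.0740 at 2 against 0 weeks, 0.779 at 2 against 1 week).

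Within CKp25 mice at 6 weeks, 1 mouse stood apart from the other 3. Il10 was found in 2.44% of the cells of mouse 1, with a mean log2(FPKM + 1) of 0.15, and in 0% of the others. For Il12b, mouse 4 had a mean of 0.36 on that scale, while the others lay between 0.00 and 0.05. Chance puts about 1 in 20 such groups on the list when values are continuous. The Il10 values come from 1 cell of 41, and a gene found in 1 mouse of a group is always listed.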

How the results depend on the processing

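No difference of a member between genotypes within a week, averaged over weeks 1, 2 and 6, or between weeks passed the threshold in the opposite direction under any of up to 39 alternatives. With log2 of the mean FPKM, 0 members were higher at 1 week and 1 at 2 weeks (Il1rn), and 0 were lower at 6 weeks or on average; this setting moved the median of all genes by -0.35 at 2 weeks, against -0.00 with the mean of log2(FPKM + 1). The filter at 25% of cells left out 4 of the 7 tested members, so that 1 was higher at 2 weeks, 0 at 6 weeks and 1 on average, and 0 were lower at 6 weeks and on average. Il6 on average also missed with the filter at 1% of cells (0 lower) and without trend and robust options (0 lower). Leaving out 1 mouse gave 0 to 1 members lower at 6 weeks and 0 to 1 on average, where Il6 missed without CKp25 mouse 2 of week 1 (adjusted p = 0.0602), CKp25 mouse 1 of week 2 (0.0515), CK mouse 2 of week 2 (0.0752) or CK mouse 2 of week 6 (0.0592). In the fit with a replicate block, the counts of members called in each week did not move (1 at 1 week, 4 at 2 weeks, 3 higher and 1 lower at 6 weeks); of the interactions, Tnf at 2 against 0 weeks (1.24, adjusted p = 0.0453) and Il18bp (0.58, 0.0427) passed with it, and Il18bp at 6 against 0 weeks did not (0.56, 0.0907). Other losses of interactions were Tnf at 1 against 0 weeks with the filter at 25% (0.0663), log2 of the mean FPKM (0.708) and quantile normalization (0.0676), Il6 at 6 against 0 weeks with the filter at 1% (0.0525) and log2 of the mean FPKM (0.0740), and Il18bp at 2 against 1 week with log2 of the mean FPKM (0.148) and wells of at least 2000 genes (0.101). Il1rn at 6 weeks missed with log2 of the mean FPKM (0.0884), all wells (0.0715), weights for cell number (0.0823) or the groups of the week alone (0.174). Of 441 alternatives of share differences, 12 moved by over 1 SD, 9 of them with wells of at least 2000 genes. In 1 alternative, a share difference of over 5 percentage points in the main setting turned its sign. Depth is unknown in FPKM, and the 41 to 96 cells per mouse limit shares of rare genes.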
